A study of Nothobranchius furzeri with 18 samples.

Results

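Immediate-early genes and dual-specificity phosphatase (dusp) genes were examined in cultured fibroblasts of the African turquoise killifish, Nothobranchius furzeri, with and without mutations in vgll3. The members are all gene columns of the deposited count table whose names start like the known families: fos, jun, egr, ier, dusp, atf3, nr4a, klf, myc, maff, mafk, btg, zfp36 and csrnp. The name rule used no measured value, but it was chosen with earlier results of these data known. It gave 52 of 25099 genes, of which 46 passed a filter on low counts and were tested. Of the 46, 4 match by name alone and are not immediate-early genes (ier3ip1, mycbp, mycbp2 and mycbpap). The rule takes whole families, so not all of the other members are immediate-early genes either, for example among the klf genes.

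Immediate-early genes are transcribed within minutes of a growth factor, serum or stress signal, without new protein synthesis. The signal runs through Ras, Raf and the MAP kinases to transcription factors already present, such as the serum response factor. Many of the products are themselves transcription factors (Fos, Jun, Egr, Nr4a and Klf proteins). Others end the response: dual-specificity phosphatases remove phosphate from MAP kinases, and Zfp36 and Btg proteins speed the decay of mRNAs. Fibroblasts fed with serum are the classic cells for this response. The roles given here are those known from mammals.

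The cells were primary fibroblasts from tails. Vgll3 is a vestigial-like cofactor of TEAD transcription factors. There were 3 cultures with a homozygous mutation in exon 3, whose library names hold "null", 3 cultures with a homozygous mutation in exon 1, whose library names hold "KD", and 4 WT cultures. All were taken at 90% confluence, kept in cold PBS for 5 min and lysed in TRI Reagent. The labels name no treatment, age or sex. Cultures are named by their number: exon 3 cultures 1, 3 and 4, exon 1 cultures 3, 4 and 6, and WT cultures F1, F9, F4 and FM, and values per culture follow this order. Most have libraries A and B, technical replicates per the series design, which were summed as labelled. WT F1 and F9 had 1 library each, and the labels do not say that they are separate cultures. They were kept apart, so every WT n of 4, and every statement on all WT cultures, rests on that choice. Whether each culture was grown from a different fish is not in the labels, and the spread behind the p-values may in part be technical.

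The 18 libraries held 15236208 to 28146560 counts each. Levels of vgll3 were 119, 103 and 99.9 CPM in the exon 3 cultures, 266, 206 and 262 CPM in the exon 1 cultures and 316, 262, 333 and 312 CPM in the WT cultures. CPM stands for counts scaled to a common library total. Exon 3 culture 3 stood apart from the other exon 3 cultures, and exon 1 library 3A stood apart from its partner 3B. The partner libraries of WT FM, and to a lesser degree of WT F4, also differed from each other, and WT library FMB was closer to WT F9 than to FMA in klf15 (30.8 CPM in FMB, 24.3 CPM in F9 and 3.04 CPM in FMA), nr4a3 (6.21, 5.05 and 34.5 CPM in these libraries) and mafk (20.7, 26.8 and 102 CPM). Other members went the other way. FMB was closer to FMA in egr1 (268, 500 and 228 CPM in FMB, F9 and FMA), ier2 (66.5, 172 and 64.0 CPM) and mycl (18.6, 31.4 and 17.1 CPM), among others. A and B were paired as labelled throughout, and for exon 1 culture 3, WT FM and WT F4 that pairing is in doubt. Fibroblast markers summed to 3850 to 7510 CPM in exon 3 cultures, 3890 to 6640 CPM in exon 1 cultures and 3860 to 4510 CPM in WT cultures. The highest sum was that of exon 3 culture 3, mostly col1a2 (4990 CPM) and col6a1 (1480 CPM). That culture had the lowest level of all cultures in lum (331 CPM), pdgfra (101 CPM), fn1 (117 CPM), twist1 (9.65 CPM) and prrx1 (246 CPM). Its pdgfrb level (232 CPM) lay within the range of the others. Of the 10 fibroblast markers, the columns vim (70 counts over all libraries) and postn (4 counts) were nearly empty. The 3 osteoblast markers summed to 309 to 1460 CPM in exon 3 cultures, 256 to 690 CPM in exon 1 cultures and 144 to 246 CPM in WT cultures, with the highest sum in exon 3 culture 3. Most of the osteoblast sum was alpl, at 215, 653 and 544 CPM in the exon 1 cultures and 113 to 208 CPM in WT cultures. In the exon 1 cultures sp7 (0.846 to 2.09 CPM) and dlx5 (36.1 to 62.0 CPM) overlapped WT (0.392 to 1.98 CPM and 30.2 to 38.5 CPM). The 3 pigment cell markers summed to 6.34 to 113 CPM in exon 3 cultures, 2.89 to 5.58 CPM in exon 1 cultures and 5.82 to 13.6 CPM in WT cultures. Nearly all of the pigment sum was dct, and sox10 had 13 counts. Epithelial, immune, endothelial, muscle and neural markers summed to at most 10.3 CPM per list in any culture. The part of these cell types in the results was not tested. In bulk RNA, fewer cells of a type and less RNA per cell cannot be told apart.

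No member passed edgeR's quasi-likelihood test at an adjusted p of 0.05 in any comparison. Most members nevertheless lay on 1 side in the exon 1 mutant: 34 of 46 were below WT, with a median log2 fold change of -0.22, against a median of 0.02 and 46.2% below 0 over all 16354 genes tested. In the exon 3 mutant 15 of 46 were below WT, with a median of 0.14, against 0.01 and 48.5% over all genes. Set directly against each other, the exon 3 mutant was above the exon 1 mutant in 36 of 46 members, with a median of 0.37, against -0.01 over all genes. For the mean of both mutants against WT, 28 of 46 members were below 0, with a median of -0.06, against 0.01 and 47.7% over all genes. The 4 WT cultures serve both mutants, so the comparisons with WT are not independent of each other. Members are known to respond to shared signals and are not independent replicates either.

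The share of all genes called by edgeR at an adjusted p of 0.05 was small: 0.238% in the exon 3 mutant against WT, 0.159% in the exon 1 mutant against WT, 0.0122% between the mutants and 0.269% for the mean of both. The smallest adjusted p of a member was 0.214, 0.303, 0.347 and 0.278 in these comparisons. At an unadjusted p under 0.05, edgeR gave 2 members below WT in the exon 3 mutant (background 5.26% of all genes) and none above (7.07%). In the exon 1 mutant it gave 7 members below WT, which is 15.2% of the members (background 4.31%), and none above (4.17%). Between the mutants, 13 members were higher in the exon 3 mutant, which is 28.3% (background 5.3%), and none were lower (3.18%). For the mean of both mutants, 6 members were below WT (background 5.06%) and none above (5.65%). DESeq2 on the same counts called 0, 2, 1 and 0 members in these 4 comparisons at an adjusted p of 0.05, where it called 3.1%, 1.55%, 1.06% and 2.7% of all genes.

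The count of 13 between the mutants moved with single cultures. It was 6 when exon 1 culture 4 was left out, 7 when exon 1 culture 3 was and 17 when exon 1 culture 6 was. With exon 3 cultures 1, 3 and 4 omitted in turn it stood at 10, 16 and 9, and with exon 1 library 3A omitted at 11. The median of 0.37 became 0.27 when exon 3 culture 3 was left out. The count of 7 in the exon 1 mutant against WT was 13 when exon 1 culture 6 was left out, 11 with DESeq2 and 9 with exon 3 culture 3 and exon 1 library 3A both omitted, and it was 5 when exon 1 culture 4 or WT F1 was left out. It was also 5 with the WT libraries regrouped by steps in gene levels, which joins F1 to F4A, F9 to FMB and F4B to FMA and was added after seeing the data. The count of 6 for the mean of both mutants was 3 when WT F1 was left out, 2 when WT F9 was, 3 with these 2 libraries summed and 1 with the WT libraries regrouped by genes that are on in some libraries and off in others. The counts in the exon 3 mutant against WT were 1 below and 4 above when WT F9 was left out, 2 below and 3 above when exon 3 culture 3 was, and 1 below when exon 3 culture 4 was. For these alternatives the share of all genes at an unadjusted p under 0.05 was not computed. Whether a moved count concerns the members or genes in general therefore cannot be told.

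**Figure D1:**
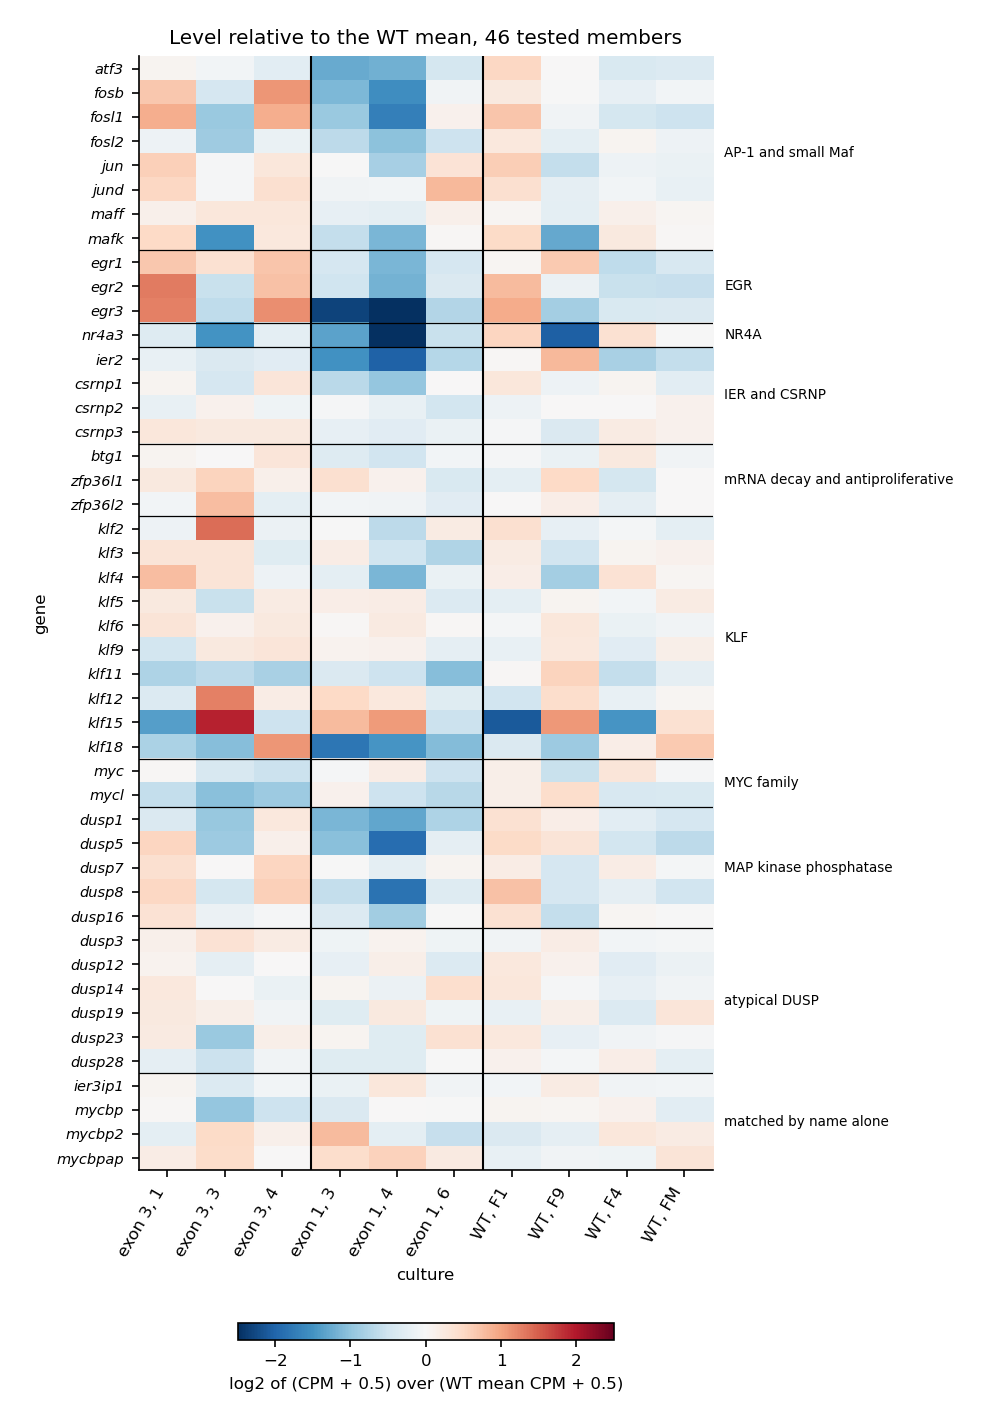
Heat map of the 46 tested members (rows, grouped by role) in the 10 cultures (columns), as the log2 ratio of CPM + 0.5 to the WT mean CPM + 0.5; colours saturate at 2.5. Exon 1 culture 4 has the lowest level of all cultures in 17 of 46 members.

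The Egr zinc finger factors, which bind GC-rich promoters early after a growth signal, were higher in the exon 3 mutant than in the exon 1 mutant in all 3 tested genes. The level of egr1 was 507, 413 and 515 CPM in the exon 3 cultures, 238, 144 and 238 CPM in the exon 1 cultures and 328, 499, 204 and 242 CPM in WT F1, F9, F4 and FM. All exon 3 cultures lay above all exon 1 cultures, and WT overlapped both. The log2 fold change of egr1 was 1.21 ± 0.32 (SE) between the exon 3 and exon 1 mutants (edgeR, unadjusted p = 0.00335, adjusted p = 0.347), 0.59 ± 0.29 in the exon 3 mutant against WT (adjusted p = 0.449) and -0.62 ± 0.30 in the exon 1 mutant against WT (adjusted p = 0.618). DESeq2 called the difference between the mutants (adjusted p = 0.0231). Over 25 alternative fits of that difference the adjusted p of egr1 ran from 0.00921, with 18 libraries as separate samples, to 0.906, when exon 1 culture 4 was left out, and its log2 fold change from 1.00 to 1.33.

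For egr3, levels were 25.9, 6.61 and 24.4 CPM in the exon 3 cultures, 1.71, 0.445 and 6.13 CPM in the exon 1 cultures and 20.5, 5.62, 8.05 and 8.08 CPM in WT F1, F9, F4 and FM. Exon 3 cultures 1 and 4 and WT F1 were high, and exon 1 cultures 3 and 4 were low. Between the exon 3 and exon 1 mutants the log2 fold change was 2.79 ± 0.84 (SE; edgeR, adjusted p = 0.440), and in the exon 1 mutant against WT it was -1.94 ± 0.80 (adjusted p = 0.537). The level of egr2 was 4.68, 0.914 and 2.96 CPM in the exon 3 cultures, 0.98, 0.423 and 1.13 CPM in the exon 1 cultures and 3.14, 1.4, 0.916 and 0.911 CPM in WT. Groups overlapped for egr2, and its difference between the mutants was 1.76 ± 0.66 on the log2 scale (SE; edgeR, adjusted p = 0.525). It rests on few counts: 372 in the exon 3 mutant, 99 in the exon 1 mutant and 185 in WT.

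**Figure D2:**
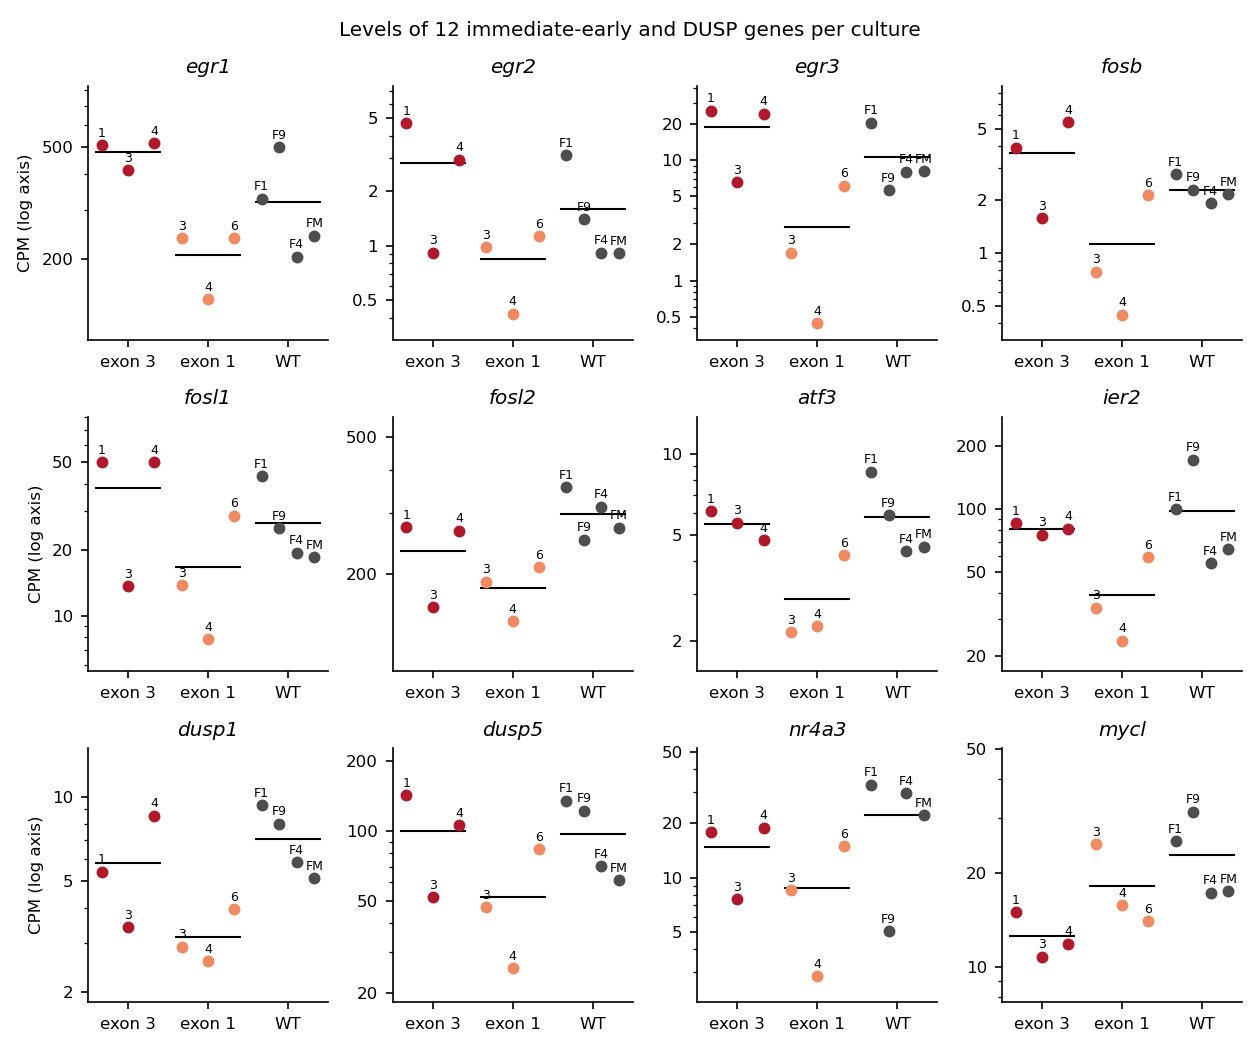
Levels of 12 members in each culture (points, labelled by culture) in CPM on log axes, with exon 3 cultures on the left, exon 1 cultures in the middle and WT on the right; bars are means. All exon 3 cultures lie above all exon 1 cultures for egr1, egr3, atf3 and ier2, and all exon 1 cultures lie below all WT cultures for fosl2, atf3 and dusp1. Partner libraries are summed here, and in single libraries the separations of egr3, atf3 and dusp1 fail.

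AP-1 is a dimer of proteins of the Jun, Fos and Atf families, such as a Fos and a Jun protein. All 8 tested genes of the AP-1 and small Maf group had higher fitted levels in the exon 3 than in the exon 1 mutant, with a median log2 fold change of 0.44, and 7 of 8 lay below WT in the exon 1 mutant, with a median of -0.58. In the exon 3 mutant against WT, 3 of 8 lay below 0, with a median of 0.27. At an unadjusted p under 0.05 stood 3 of them between the mutants (fosb, atf3 and maff) and 2 in the exon 1 mutant against WT (atf3 and fosl2). In the same directions stood 5.3% of all genes between the mutants and 4.31% in the exon 1 mutant against WT.

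The gene atf3, a stress-induced factor of this group, had 6.1, 5.53 and 4.76 CPM in the exon 3 cultures, 2.16, 2.27 and 4.18 CPM in the exon 1 cultures and 8.58, 5.91, 4.33 and 4.5 CPM in WT. The exon 1 cultures were the lowest 3 of the 10. In single libraries WT FMB (2.77 CPM) and WT F4B (3.76 CPM) lay below exon 1 library 6B (5.09 CPM). The separation of atf3 therefore holds only for summed partners. In the exon 1 mutant against WT its log2 fold change was -1.02 ± 0.31 (SE; edgeR, unadjusted p = 0.00719, adjusted p = 0.356), and in the exon 3 mutant against WT it was -0.09 ± 0.30 (adjusted p = 0.928). The level of fosl2 was 273, 160 and 267 CPM in the exon 3 cultures, 190, 146 and 209 CPM in the exon 1 cultures and 356, 251, 313 and 272 CPM in WT. Every exon 1 culture was below every WT culture, a log2 difference of -0.71 ± 0.22 (SE; edgeR, adjusted p = 0.362), and the exon 3 cultures overlapped both. For the mean of both mutants the value of fosl2 was -0.53 ± 0.18 (SE; edgeR, adjusted p = 0.288).

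Levels of fosb were 3.94, 1.57 and 5.5 CPM in the exon 3 cultures, 0.779, 0.445 and 2.12 CPM in the exon 1 cultures and 2.79, 2.27, 1.91 and 2.14 CPM in WT. Exon 3 culture 3 and exon 1 culture 6 crossed, so the mutants overlapped. The difference between the mutants was 1.73 ± 0.56 on the log2 scale (SE; edgeR, adjusted p = 0.475). The level of fosl1 was 50.1, 13.7 and 50.2 CPM in the exon 3 cultures, 13.8, 7.83 and 28.6 CPM in the exon 1 cultures and 43.3, 25.1, 19.4 and 18.5 CPM in WT. Exon 3 culture 3 was again with the low cultures, and the difference of 1.18 ± 0.56 between the mutants had an adjusted p of 0.6 (SE; edgeR).

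The gene jun, whose product is the main partner of Fos proteins, had 56.3, 36 and 44.7 CPM in the exon 3 cultures, 36.7, 20.4 and 46.8 CPM in the exon 1 cultures and 56.4, 24.3, 33.7 and 33 CPM in WT. The groups overlapped, and so did those of jund, at 10.7, 7.22 and 9.93 CPM in the exon 3 cultures, 6.93, 7.01 and 13.3 CPM in the exon 1 cultures and 9.84, 6.2, 6.94 and 6.42 CPM in WT. Against WT, the log2 fold change of jun was 0.31 ± 0.32 in the exon 3 mutant and -0.09 ± 0.32 in the exon 1 mutant, and that of jund was 0.34 ± 0.26 and 0.31 ± 0.27 in these mutants (SE; edgeR, adjusted p from 0.630 to 0.977). A second column is also named jun in RefSeq (LOC107396464), with 49.5, 10.8 and 45.9 CPM in the exon 3 cultures, 22.2, 16.5 and 31.4 CPM in the exon 1 cultures and 61.9, 37.8, 35.9 and 30.3 CPM in WT. How the authors counted reads that match several genes is not stated, and the sequences of these 2 genes were not compared here, so both levels may be uncertain. The small Maf gene maff, whose protein has no activation domain, had 111 to 123 CPM in exon 3 cultures, 85 to 110 CPM in exon 1 cultures and 85 to 110 CPM in WT cultures, with 0.34 ± 0.14 on the log2 scale between the mutants (SE; edgeR, adjusted p = 0.554).

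The orphan nuclear receptor nr4a3 had 17.9, 7.59 and 18.9 CPM in the exon 3 cultures, 8.52, 2.83 and 15 CPM in the exon 1 cultures and 32.8, 5.04, 29.4 and 22.2 CPM in WT F1, F9, F4 and FM. Both mutants had lower means than WT, but WT F9 lay among the lowest cultures. The log2 fold changes against WT were -0.60 ± 0.63 in the exon 3 mutant and -1.36 ± 0.65 in the exon 1 mutant (SE; edgeR, adjusted p = 0.734 and 0.617). The other 3 WT cultures lay above every mutant culture, but WT FM is the sum of libraries at 34.5 and 6.21 CPM, and the lower one is below all mutant cultures but exon 1 culture 4. The related nr4a2 had 8 counts in all libraries and was not tested.

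The nuclear immediate-early protein gene ier2 had 85.7, 75.7 and 80.7 CPM in the exon 3 cultures, 33.9, 23.6 and 59.2 CPM in the exon 1 cultures and 99.8, 172, 55.5 and 64.3 CPM in WT. Exon 3 cultures were alike and above every exon 1 culture, and exon 1 culture 6 lay within the range of WT. Its log2 fold change was -1.33 ± 0.41 in the exon 1 mutant against WT (SE; edgeR, unadjusted p = 0.00792, adjusted p = 0.367), which DESeq2 called (adjusted p = 0.0418), and -0.28 ± 0.39 in the exon 3 mutant against WT (edgeR, adjusted p = 0.802). Csrnp proteins are cysteine- and serine-rich nuclear factors. The level of csrnp3 was 26.6, 26 and 25.9 CPM in the exon 3 cultures, 18.9, 17.7 and 19.3 CPM in the exon 1 cultures and 21.4, 16.9, 25 and 23.6 CPM in WT. The exon 3 cultures were the highest 3 of the 10, and the mutants differed by 0.49 ± 0.14 on the log2 scale (SE; edgeR, unadjusted p = 0.00495, adjusted p = 0.375). The other 2 tested csrnp genes overlapped between all genotypes.

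Many typical MAP kinase phosphatases are induced by the kinases they switch off. Of the 5 tested, dusp1, dusp5, dusp7, dusp8 and dusp16, all had fitted levels below WT in the exon 1 mutant, with a median log2 fold change of -0.79, and 1 was below WT in the exon 3 mutant, with a median of 0.07. All 5 were higher in the exon 3 than in the exon 1 mutant, with a median of 0.88. Of these, dusp1 and dusp8 were at an unadjusted edgeR p under 0.05, where 5.3% of all genes were in that direction.

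The level of dusp1, a nuclear phosphatase induced by growth factors and stress, was 5.4, 3.42 and 8.56 CPM in the exon 3 cultures, 2.91, 2.58 and 3.96 CPM in the exon 1 cultures and 9.32, 8.01, 5.83 and 5.13 CPM in WT. Every exon 1 culture lay below every WT culture, while the exon 3 cultures overlapped both groups. In single libraries WT FMB (4.04 CPM) was slightly below exon 1 library 6B (4.13 CPM). It had the smallest p among the members in the exon 1 mutant against WT, with a log2 difference of -1.16 ± 0.33 (SE; edgeR, unadjusted p = 0.00499, adjusted p = 0.303). DESeq2 called it (adjusted p = 0.0386), and over 23 alternative fits the adjusted p lay between 0.0386 and 0.663. Set against WT, the exon 3 mutant had a value of -0.28 ± 0.32 (SE; edgeR, adjusted p = 0.749).

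The nuclear, ERK-specific phosphatase dusp5 had 142, 51.9 and 106 CPM in the exon 3 cultures, 47.1, 25.6 and 83.2 CPM in the exon 1 cultures and 135, 122, 70.6 and 61.4 CPM in WT. Groups overlapped, and the log2 fold changes against WT were 0.04 ± 0.44 in the exon 3 mutant and -0.90 ± 0.45 in the exon 1 mutant (SE; edgeR, adjusted p = 0.978 and 0.641). For dusp8, which acts on JNK and p38 kinases, the level was 80.7 to 164 CPM in exon 3 cultures, 30 to 87.2 CPM in exon 1 cultures and 78.4 to 182 CPM in WT cultures. Exon 1 culture 4 was lowest for dusp5 and dusp8. The ERK phosphatase dusp7 had 6.87 to 10.1 CPM in exon 3 cultures, 5.7 to 7.15 CPM in exon 1 cultures and 5 to 7.85 CPM in WT cultures. For dusp16, which acts on JNK and p38, the level was 26.4 to 37.5 CPM in exon 3 cultures, 15.7 to 29.2 CPM in exon 1 cultures and 19.2 to 38.4 CPM in WT cultures. The ERK phosphatases dusp6 (LOC107373573) and dusp4 (LOC107396907) are no members, since their columns carry LOC numbers. The level of dusp6 was 18.3, 24.3 and 24.8 CPM in the exon 3 cultures, 14.7, 15.6 and 19.7 CPM in the exon 1 cultures and 20.2, 9.91, 24.6 and 20.3 CPM in WT, with overlapping groups.

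**Figure D3:**
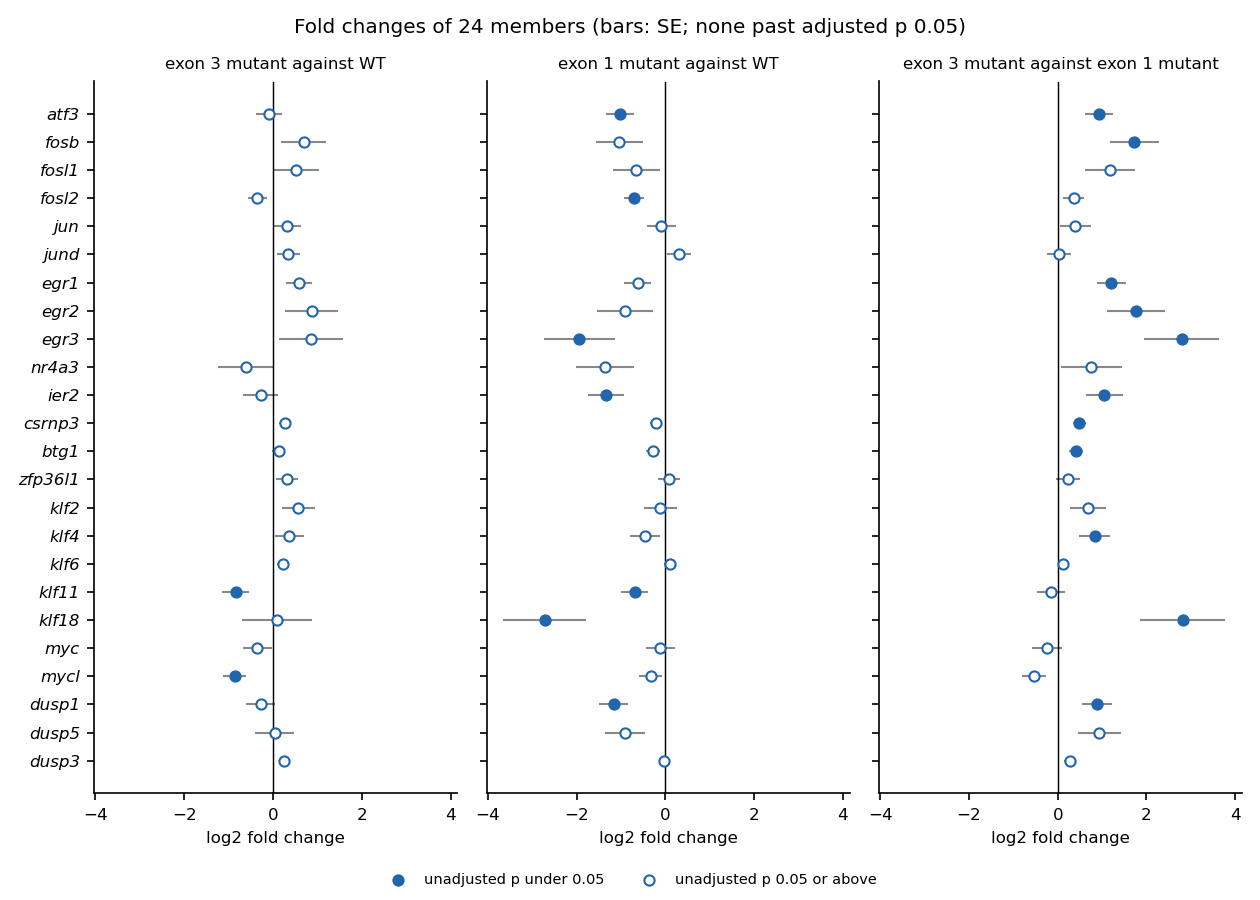
Log2 fold changes of 24 members (rows) with their SE as bars, for the exon 3 mutant against WT, the exon 1 mutant against WT and the exon 3 against the exon 1 mutant; filled points have an unadjusted edgeR p under 0.05. Filled points number 2 on the left, 7 in the middle and 11 on the right, and none passed an adjusted p of 0.05. The 24 were picked in part for a small p, so filled points out of 24 are no share of the members. Over all 46 tested members the counts are 2 lower, 7 lower and 13 higher (4.35%, 15.2% and 28.3%). The same directions held for 5.26%, 4.31% and 5.3% of all genes.

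Atypical dusp genes code for small phosphatases, not all of which act on MAP kinases. The 6 tested had median log2 fold changes of 0.01 in the exon 3 mutant and -0.05 in the exon 1 mutant against WT and 0.00 between the mutants. Single genes ran from -0.35 to 0.25, from -0.25 to 0.15 and from -0.18 to 0.28 in these comparisons. Among them dusp3, which acts on ERK and JNK, had 11.7, 13.8 and 12.3 CPM in the exon 3 cultures, 9.82, 11.4 and 9.85 CPM in the exon 1 cultures and 10, 12.2, 10.1 and 10.2 CPM in WT. The exon 3 cultures lay above the exon 1 cultures by 0.28 ± 0.13 on the log2 scale (SE; edgeR, adjusted p = 0.597). This group also had the smallest spread within genotypes of the member groups, with a median SD of log2 (CPM + 0.5) of 0.23, against 0.43 for the typical phosphatases. The median over all genes tested was 0.23 as well. The groups were not matched by level, and the added 0.5 narrows the spread of genes at low levels, such as dusp19 (0.416 to 0.951 CPM in WT cultures).

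Among the genes that limit growth or mRNA life, btg1 codes for an antiproliferative partner of the CCR4-NOT deadenylase. Its level was 379, 365 and 447 CPM in the exon 3 cultures, 292, 260 and 344 CPM in the exon 1 cultures and 357, 323, 430 and 341 CPM in WT. All exon 3 cultures lay above all exon 1 cultures, with a log2 difference of 0.41 ± 0.16 (SE; edgeR, adjusted p = 0.551). The level of zfp36l1, whose protein binds AU-rich elements, was 721, 902 and 669 CPM in the exon 3 cultures, 807, 658 and 470 CPM in the exon 1 cultures and 517, 867, 451 and 614 CPM in WT. It overlapped between genotypes, with log2 fold changes of 0.32 ± 0.25 and 0.08 ± 0.25 in the exon 3 and exon 1 mutants against WT (SE; edgeR, adjusted p = 0.634 and 0.976).

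Krüppel-like factors are zinc finger proteins, only some of which are immediate-early. Of the 10 tested, 9 lay above WT in the exon 3 mutant, with a median log2 fold change of 0.19, and 5 in the exon 1 mutant, with a median of -0.05. The exception in the exon 3 mutant was klf11, a gene induced by TGF-beta, at 2.8, 3.12 and 2.71 CPM in the exon 3 cultures, 3.89, 3.47 and 2.2 CPM in the exon 1 cultures and 5.27, 7.81, 3.25 and 4.34 CPM in WT. All exon 3 cultures were below all WT cultures, at -0.84 ± 0.30 on the log2 scale (SE; edgeR, unadjusted p = 0.0188, adjusted p = 0.300), and for the mean of both mutants the value was -0.76 ± 0.25 (adjusted p = 0.278). The exon 1 value was -0.69 ± 0.30 (SE; edgeR, adjusted p = 0.571). For klf11, WT F4 is the sum of libraries at 4.62 and 1.88 CPM, and WT FM of libraries at 2.3 and 7.19 CPM. The lower library of each lay below every exon 3 library (2.47 to 3.67 CPM), so the separation from WT holds only for summed partners.

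The level of klf4 was 95.1, 69.5 and 50.6 CPM in the exon 3 cultures, 47, 24.9 and 49.1 CPM in the exon 1 cultures and 62.2, 30.6, 71.3 and 57.6 CPM in WT. Its mutant groups did not overlap, with a log2 fold change of 0.83 ± 0.35 between the exon 3 and exon 1 mutants (SE; edgeR, adjusted p = 0.567). The level of klf2, a gene known from endothelium under flow, was 34, 98.8 and 33.9 CPM in the exon 3 cultures, 37, 23.5 and 43.5 CPM in the exon 1 cultures and 49.5, 32.5, 36.2 and 31.5 CPM in WT. The high value of klf2 was that of exon 3 culture 3 alone, and its difference from WT was 0.57 ± 0.37 (SE; edgeR, adjusted p = 0.567). Levels of klf6 were 108, 93.7 and 103 CPM in the exon 3 cultures, 88.6, 101 and 88.3 CPM in the exon 1 cultures and 83.1, 105, 76.7 and 81.4 CPM in WT, a difference of 0.23 ± 0.13 in the exon 3 mutant against WT (SE; edgeR, adjusted p = 0.486).

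The column klf18 had 0.612, 0.422 and 3.66 CPM in the exon 3 cultures, 0.0502, 0.2 and 0.413 CPM in the exon 1 cultures and 1, 0.537, 1.66 and 2.54 CPM in WT. These are 193, 26 and 224 counts in the exon 3 mutant, the exon 1 mutant and WT. Every exon 1 culture was below every culture of the other genotypes, and the log2 fold change was -2.72 ± 0.93 in the exon 1 mutant against WT and 2.82 ± 0.96 in the exon 3 against the exon 1 mutant (SE; edgeR, adjusted p = 0.435 and 0.482). Of the exon 3 cultures, culture 4 was high and cultures 1 and 3 were near exon 1 culture 6. Over the alternatives the value in the exon 1 mutant against WT ranged from -3.48 to -1.81, and that between the mutants from 1.23, without exon 3 culture 4, to 3.97.

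Of the Myc family of growth regulators, mycl had the smallest p of the members in the exon 3 mutant against WT. Its level was 15, 10.8 and 11.9 CPM in the exon 3 cultures, 24.7, 15.8 and 14 CPM in the exon 1 cultures and 25.3, 31.4, 17.3 and 17.5 CPM in WT. Exon 3 cultures lay below all WT cultures, and the log2 fold change was -0.86 ± 0.26 (SE; edgeR, unadjusted p = 0.00739, adjusted p = 0.214), against -0.33 ± 0.26 in the exon 1 mutant against WT (adjusted p = 0.815). A like-named column that is no member, mycla (LOC107392594), went the other way. Its log2 fold change against WT was 0.47 ± 0.19 in the exon 3 mutant and 0.47 ± 0.19 in the exon 1 mutant (SE; edgeR, adjusted p = 0.358 and 0.544). The level of myc was 2.41, 1.66 and 1.47 CPM in the exon 3 cultures, 2.31, 2.76 and 1.49 CPM in the exon 1 cultures and 2.66, 1.45, 3.02 and 2.3 CPM in WT. Its groups overlapped, with log2 fold changes of -0.35 ± 0.32 and -0.11 ± 0.32 in the exon 3 and exon 1 mutants against WT (SE; edgeR, adjusted p = 0.680 and 0.972).

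Counted over all members, the cultures of the exon 1 mutant lay wholly below those of WT for 4 genes, atf3, dusp1, fosl2 and klf18, where 4.37% of all genes did so. The exon 3 cultures lay wholly below WT for klf11 and mycl (6.87% of all genes) and wholly above WT for csrnp3 and maff (6.99%). Exon 3 cultures lay wholly above exon 1 cultures for 10 members, which is 21.7% of them, against 6.18% of all genes: atf3, btg1, csrnp3, dusp3, egr1, egr3, ier2, klf18, klf4 and maff. These counts, for members and for all genes, are of cultures with partner libraries summed. In single libraries the separation from WT fails for atf3, dusp1 and klf18 in the exon 1 mutant. It also fails for klf11, mycl, csrnp3 and maff in the exon 3 mutant against WT. Between the mutants it fails for atf3, btg1, dusp3, egr3, klf18 and klf4. It does not hold for maff either, at 109 CPM in both exon 3 library 1A and exon 1 library 6A. The 4 genes matched by name alone had median log2 fold changes of 0.02 in the exon 3 mutant and 0.07 in the exon 1 mutant against WT, and mycbpap, with 68 counts in all, had the highest log2 fold change of any member against WT, 1.59 ± 0.80 in the exon 1 mutant (SE; edgeR, adjusted p = 0.643). The 6 members that were not tested, dusp10, dusp13, dusp22, dusp27, klf1 and nr4a2, had 1 to 20 counts over all 18 libraries.

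The members varied more between cultures of 1 genotype than genes in general. The median SD of log2 (CPM + 0.5) within genotypes was 0.37 over the 46 members, against 0.23 over all genes tested. The added 0.5 narrows the spread of genes at low levels, and members and all genes were not matched by level. It was 1.42 for klf15, 1.07 for egr3, 1.06 for nr4a3, 0.84 for mafk and 0.83 for fosl1. Exon 1 culture 4 had the lowest level of all cultures in 17 of 46 members, or 37%, against 9.78% of all genes. Exon 3 culture 3 was lowest in 7 and highest in 7 members, against 25% and 23.1% of all genes, and exon 3 cultures 1 and 4 were highest in 9 and 8 members (19.6% and 17.4%, against 6.11% and 5.33% of all genes). WT F1 was highest in 8 members (17.4%, against 11.5% of all genes). Exon 3 culture 3, which also held the highest osteoblast marker sum, 1460 CPM, had the highest levels of klf2, klf12 (13.9 CPM, against 4.26 to 7.99 CPM in the other mutant cultures and 3.79 to 7.68 CPM in WT cultures) and zfp36l2 (69.4 CPM, against 33.2 to 38.5 CPM in exon 1 cultures and 34.4 to 45.6 CPM in WT cultures).

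Libraries labelled as technical partners differed in many members in a pair of cultures. In exon 1 culture 3, 16 of 43 members with enough counts were more than 2-fold apart between libraries A and B, or 37.2%, against 18.9% of all genes. In WT FM this held for 11 of 45 members, or 24.4%, against 5.31% of all genes, and in WT F4 for 3 of 44, or 6.82%, against 3.3%. In the other 5 cultures with partners it held for at most 2 members, or 4.55%, against 0.327% to 0.686% of all genes. The level of egr3 was 0.513 CPM in exon 1 library 3A and 2.99 CPM in 3B, and 13.2 CPM in WT FMA and 1.46 CPM in FMB. Levels of nr4a3 were 6.11 and 11.3 CPM in exon 1 libraries 3A and 3B and 34.5 and 6.21 CPM in WT FMA and FMB. The small Maf gene mafk had 33 and 55.6 CPM in exon 1 libraries 3A and 3B and 102 and 20.7 CPM in WT FMA and FMB. Each of these genes was lower in exon 1 library 3A and in WT FMB than in the partner library.

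The opposite held for klf15, a gene induced by glucocorticoids, at 37.7 and 2.52 CPM in exon 1 libraries 3A and 3B and 3.04 and 30.8 CPM in WT FMA and FMB. Across cultures klf15 had 4, 44.1 and 7.64 CPM in the exon 3 cultures, 19.7, 24.1 and 7.54 CPM in the exon 1 cultures and 2.22, 24.2, 3.72 and 14.7 CPM in WT F1, F9, F4 and FM. It was high in some cultures and low in others of each genotype. In exon 3 culture 1, egr2 had 7.38 CPM in library A and 1.65 CPM in library B, while egr1 had 599 and 402 CPM. The difference of ier2 between partners was 13 against 56.5 CPM in exon 1 libraries 3A and 3B. Without library 3A, the log2 fold changes between the mutants had a median of 0.42 over 45 members, and no member passed.

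**Figure D4:**
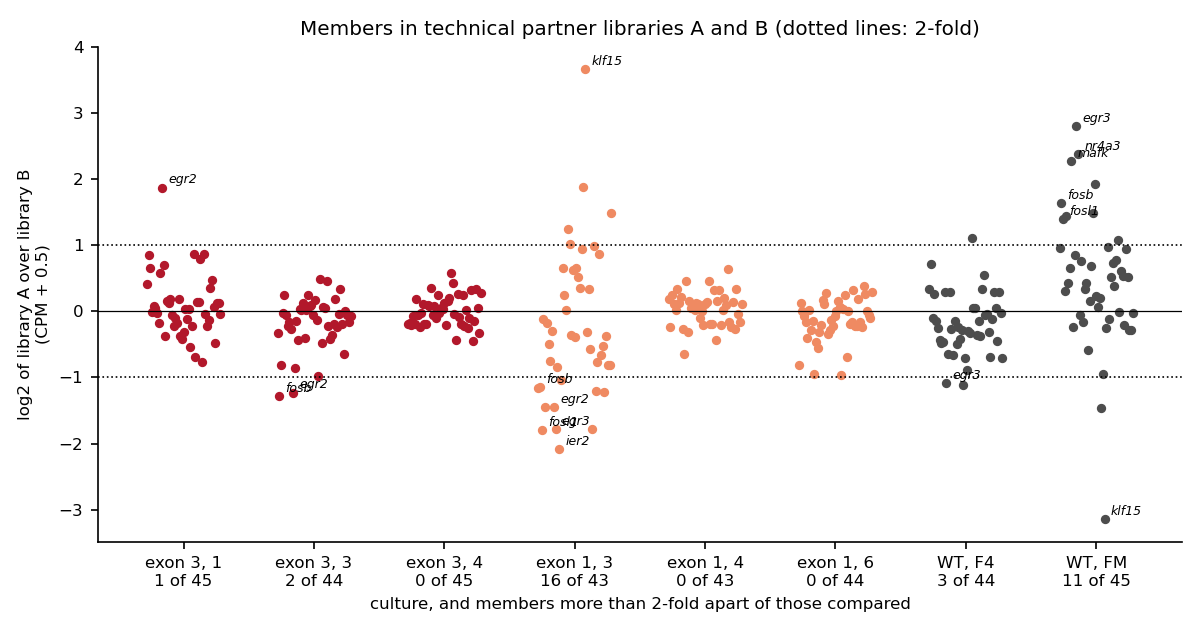
Log2 ratio of library A to library B (CPM + 0.5) for the members with at least 20 counts in both libraries together, for each culture with partners, with 2-fold marked by dotted lines. Exon 1 culture 3 has 16 of 43 members and WT FM 11 of 45 beyond 2-fold, while exon 3 culture 4 and exon 1 cultures 4 and 6 have 0.

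Columns with LOC numbers that RefSeq names like the members formed a separate list of 29 relatives, of which 22 were tested and 0 passed edgeR's test. The 4 with the smallest p are named here. The level of csrnp1b (LOC107382811) was 97.3, 80.4 and 100 CPM in the exon 3 cultures, 63.2, 59.9 and 57.1 CPM in the exon 1 cultures and 95.8, 81, 79.5 and 82.9 CPM in WT. All exon 1 cultures were below all others, with log2 fold changes of 0.62 ± 0.12 in the exon 3 against the exon 1 mutant and -0.50 ± 0.12 in the exon 1 mutant against WT (SE; edgeR, adjusted p = 0.217 and 0.191). The Myc relative mych (LOC107385060) had 89.4, 93.5 and 81.8 CPM in the exon 3 cultures, 57.9, 60.7 and 63.4 CPM in the exon 1 cultures and 96, 87.4, 69.5 and 76.8 CPM in WT, with log2 fold changes of 0.54 ± 0.13 and -0.44 ± 0.12 in the same comparisons (SE; edgeR, adjusted p = 0.291 and 0.299).

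A different order was seen for ier3 (LOC107386126), at 83.5, 79.1 and 57.9 CPM in the exon 3 cultures, 80.7, 96.9 and 100 CPM in the exon 1 cultures and 115, 104, 119 and 106 CPM in WT. Both mutants lay wholly below WT, with log2 fold changes of -0.59 ± 0.14 in the exon 3 mutant (SE; edgeR, unadjusted p = 0.00187, adjusted p = 0.135) and -0.43 ± 0.12 for the mean of both (adjusted p = 0.201). The level of klf13 (LOC107388757) was 4.53, 21.0 and 7.74 CPM in the exon 3 cultures, 6.46, 3.52 and 5.97 CPM in the exon 1 cultures and 2.74, 5.08, 4.13 and 4.52 CPM in WT. Exon 3 culture 3 was the highest and exon 3 culture 1 lay within WT, and the log2 difference from WT was 1.43 ± 0.45 (SE; edgeR, adjusted p = 0.240). Over the 22 relatives, the exon 3 mutant was above the exon 1 mutant in 18, with a median log2 fold change of 0.36. Over all genes tested the median was -0.01, and 51.1% were below 0. The relatives junbb (LOC107376222) and ier2a (LOC107376634) overlapped between all genotypes. The mean of junbb was 308 ± 23.8 CPM in exon 3 cultures and 223 ± 64.4 CPM in exon 1 cultures (SD, n = 3), and 333 ± 110 CPM in WT cultures (SD, n = 4). The relatives nr4a1 (LOC107390383) and fosaa (LOC107392399) had too few counts to be tested.

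Genes upstream of the members and their targets formed a list of 38 columns: receptors, Ras, Raf and MAP kinase genes, Sprouty and Spred inhibitors, and the Ets and serum response factors. Of these 35 were tested and 0 passed edgeR's test in any comparison. The median log2 fold change was 0.05 in the exon 3 mutant and -0.04 in the exon 1 mutant against WT and 0.18 between the mutants, and 27 of 35 were higher in the exon 3 than in the exon 1 mutant. Between the mutants, all genes tested had a median of -0.01, with 51.1% below 0. Sprouty proteins inhibit Ras signalling and are induced by it. The level of spry4 was 52.6, 59.4 and 55.1 CPM in the exon 3 cultures, 30.9, 26.5 and 33.9 CPM in the exon 1 cultures and 63.2, 32.7, 53.1 and 47.3 CPM in WT. The mutants did not overlap, with a log2 fold change of 0.87 ± 0.20 between them (SE; edgeR, unadjusted p = 0.0015, adjusted p = 0.267).

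Its relative spry2 had 2.21, 2.98 and 1.87 CPM in the exon 3 cultures, 0.879, 0.801 and 0.633 CPM in the exon 1 cultures and 3.53, 2.23, 0.971 and 0.97 CPM in WT, with 1.6 ± 0.49 between the exon 3 and exon 1 mutants on the log2 scale (SE; edgeR, adjusted p = 0.445). The Ets factor gene etv4, a target of ERK signalling, ran the other way in the exon 1 mutant. Its level was 10.8, 21.5 and 12 CPM in the exon 3 cultures, 17.9, 16.8 and 17.5 CPM in the exon 1 cultures and 7.84, 9.05, 11.1 and 12.6 CPM in WT. Exon 1 cultures were all above WT, with a log2 difference of 0.78 ± 0.24 (SE; edgeR, adjusted p = 0.365). In the exon 3 mutant against WT etv4 was also above 0, at 0.54 ± 0.24 (SE; edgeR, adjusted p = 0.393). Other genes of these families differed less between the mutants. The log2 fold change was 0.3 for spry1, 0.06 for spred1, 0.05 for spred2, 0.2 for spred3 and 0.22 for etv5 (edgeR, adjusted p from 0.783 to 0.972). No set rule chose which genes of this list are named.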

How the data were processed

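The file the authors deposited holds raw counts per gene, whole numbers for 25099 genes in 18 libraries. Per the submitters' processing notes, the tools included STAR 2.7.6a, edgeR 3.32.1, cutadapt 3.4, Trim Galore 0.6.4 and FastQC 0.11.8, in no stated role. Build, annotation, strand and treatment of reads matching several genes: not given in the sources used here. Values of members with a like-named second gene (among them jun, ier2 and ier2a, klf6 and klf6a, klf11 and klf11a, mycl and mycla, csrnp1 and csrnp1b, mycbp), whose sequences were not compared here, and of overlapping genes may therefore be uncertain. RefSeq (assembly NfurGRZ-RIMD1) was used only for names of LOC columns.

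Partner libraries were added up, giving 23013830 to 47791330 counts in each of 10 cultures. All were fitted in 1 model with edgeR 4.0.16 (R 4.3.3): filterByExpr, TMM scaling, robust quasi-likelihood F tests, Benjamini-Hochberg adjustment over 16354 genes, threshold 0.05. Fold changes use a prior count of 0.125, and SE is the absolute fold change over the square root of F. DESeq2 1.42.0, other scalings, filters, groupings and left-out cultures were alternatives. Members in every culture are given for the 6 smallest p per comparison and for defining genes of each role. Members, lists, rules and tests were chosen with earlier results of these data known.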

Additional observations from a re-analysis of the deposited data

Results flagged for a closer look

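Among the 24 members given in every culture, the 4 WT cultures were examined for a value far from the rest, which chance gives in about 1 of 20 groups, and 2 were found. The level of dusp3 was 12.2 CPM in WT F9, against 10.0 to 10.2 CPM in the other WT cultures. That of egr3 was 20.5 CPM in WT F1, against 5.62 to 8.08 CPM in the others. WT F1 and F9 are the WT cultures with 1 library each.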

How the results depend on the processing

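The count of members past an adjusted p of 0.05 was 0 in the 4 comparisons and stayed 0 under all alternatives but 2, of 25 run. With DESeq2 it was 2 in the exon 1 mutant against WT (dusp1 and ier2) and 1 in the exon 3 against the exon 1 mutant (egr1), where DESeq2 called 1.55% and 1.06% of all genes. The cause was not tested. With the 18 libraries as separate samples, which counts technical partners as replicates, it was 1 in the exon 3 mutant against WT (mycl), 3 in the exon 1 mutant against WT (dusp1, klf18 and fosl2), 3 between the mutants (egr1, csrnp3 and egr3) and 1 for the mean of both (fosl2). These are out of 45 members tested, and that fit called 3.72%, 2.24%, 1.82% and 3.26% of all genes in these comparisons. Leaving out each culture in turn gave 0 in every comparison. None of the 24 fold changes of the members with the smallest p reversed in any alternative. They were picked for a small p in the main fit, and the alternatives use largely the same counts. A reversal was therefore unlikely from the start, and its absence is no independent support. The mutants share replicate numbers 3 and 4, which the labels do not tie to a shared fish or day: with a replicate block on these 4 cultures 0 members passed (10 higher and 1 lower in the exon 3 mutant at an unadjusted p under 0.05), and with no block 0 (12 and 1). The share of all genes at that unadjusted p was not computed for these fits. Culture 3 minus culture 4 correlated at 0.073 between the mutants across 16354 genes, which are not independent. The alternatives with WT regrouped by level steps and with exon 3 culture 3 left out together with exon 1 library 3A, were chosen after seeing the data. Members under about 1 CPM, such as klf18, are limited by depth.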
